A study of Mus musculus with 6 samples.

Results

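The transcription factor p53 answers DNA damage and other stress by switching on genes that halt the cell cycle, start cell death, repair DNA and adjust metabolism. Several of its targets act back on p53 itself, above all Mdm2, the ubiquitin ligase that marks p53 for destruction. p53 binds DNA as a tetramer that contacts a pair of half-sites of 10 bases each. The 32 genes described here are p53 targets and the p53 gene Trp53. They were chosen by name from a table of 53465 genes, and all 32 were found in it through their Ensembl identifiers in the GENCODE M21 annotation of the mouse genome build GRCm38. They were divided by role into 6 arrest genes, 5 feedback genes (Trp53 included), 12 apoptosis genes, 4 DNA repair genes and 5 genes of stress metabolism and cell-surface signalling.

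The data are ribosome profiling of ID8, a cancer line from mouse ovarian surface epithelium that is generally described as keeping a wild-type Trp53 gene. Ribosome profiling sequences the short mRNA pieces that ribosomes protect from nuclease, here called fragments, and all cells were given cycloheximide to hold ribosomes in place. There were 3 libraries labelled KO, from cells given a guide against Nat10, an RNA acetyltransferase, and 3 libraries labelled WT, from cells given the control guide sgNC. The series asks how loss of NAT10 affects translation. The labels give no cut site, no clonal status, no time after editing and no statement that replicates were separate cultures, so p-values cover only the spread between these libraries.

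The KO libraries held 2234305 to 3126208 counts in genes, and the WT libraries 1687466 to 2148715. A higher level can reflect more mRNA, more expressing cells or denser ribosomes, and these cannot be told apart here. Levels are CPM, counts divided by the library size and brought to a common scale, with library sizes adjusted by TMM (trimmed mean of M-values, which corrects for composition). Besides single reads, gene counts in each library had a second favoured value, the modal count, of 42, 46 and 60 in KO and 15, 21 and 39 in WT. A count divided by the modal count of its library is given in molecule equivalents, a guide to how many independent fragments a gene may hold. In this unit the libraries held 60506, 48572 and 52103 in KO against 112498, 102320 and 46442 in WT. WT replicates 1 and 2 were thus the deepest by molecule equivalents, although the KO libraries held more counts. Of all genes tested, 55.7% averaged under 3 molecule equivalents. Nat10 fragments did not separate the groups, with 123, 56.9 and 138 CPM in KO against 102, 64.0 and 169 CPM in WT (log2 fold change, KO minus WT, -0.07, SE 0.48). The level of Nat10 thus does not bear out the label KO, and the directions below rest on the labels alone. Of 10 leukocyte markers, 5 had a count in some library and the summed level was at most 1.55 CPM in KO and 14.5 CPM in WT. Of 6 endothelial markers, 5 had a count, with sums of at most 2.17 CPM in KO and 5.996 CPM in WT. The 10 markers of ovarian surface epithelium and mesothelium summed to 4179.8 to 4827 CPM in KO and 5892 to 6345 CPM in WT. The keratin Krt19 was present in every library and fell to 2223 ± 32.1 CPM in KO, against 4202 ± 203 CPM in WT (SD, n = 3; -0.92, edgeR adjusted p = 0.0044), Krt18 also fell (-1.74), mesothelin, Msln, rose (1.05), and Epcam had no count. The 6 fibroblast markers summed to 951 to 1325 CPM in KO and 670.1 to 737 CPM in WT, with Thy1 at 0 and decorin, Dcn, the only one tested (0.67, SE 0.19). The part of these shifts in the results below was not tested.

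The DNA around the members' start sites was searched first, because a p53 response element is a feature that the choice by name did not use directly, although such sites are part of why some of these genes are known as targets. The p53 consensus was searched on both strands, within 3000 bases either side of the start of the principal GENCODE transcript in GRCm38. It consists of 2 half-sites, each with purines, a core that starts with C, ends with G and holds A or T between, and pyrimidines. The 2 half-sites had to adjoin without bases between them, both cores had to be intact and at most 2 other bases could differ. Of the 32 members, 10 had a match. Of the 28 members with enough counts to test, 8 had one (28.6%), against 339 of 8087 tested genes with an annotated coding transcript, or 4.19%. The sites below are those with at most 1 mismatch, plus both sites of Plk2, an arrest gene whose groups were apart, with the cores in capitals.
Cdkn1a: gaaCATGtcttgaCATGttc
Zmat3: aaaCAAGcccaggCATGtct
Ccng1: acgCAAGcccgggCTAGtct
Gdf15: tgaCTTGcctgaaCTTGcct
Plk2, farther site: caaCATGcccgggCTTGcat
Plk2, nearer site: gatCTTGcttagaCTTGttg

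The Cdkn1a match (chr17:29090928-29090947, plus strand) lies 2831 bases upstream of the start of the principal transcript and has 1 mismatch. The only match with 0 mismatches belongs to Zmat3, in intron 1 (chr3:32364331-32364350, minus strand). That of Ccng1, also in intron 1, lies 365 bases past the start (chr11:40754936-40754955, minus strand). The Gdf15 match lies in untranslated exon 1, 119 bases past the start (chr8:70631966-70631985, minus strand). The Plk2 matches have 2 mismatches each and lie 2154 and 642 bases upstream (chr13:110392882-110392901 and chr13:110394394-110394413, plus strand). The other members with a match were Ckap2, Fas, Perp, Pidd1 and Pmaip1, each with 2 mismatches. With 3 mismatches allowed, Trp53, Aen, Bbc3 and Tigar were added, making 14 members. Of the 28 tested members 11 then had a match (39.3%), against 15.1% of tested genes. Of the members whose groups were apart, no match was found for Mdm2, Gadd45a, Eda2r, Tnfrsf10b or Epha2. This says only that adjoining half-sites with so few mismatches are not in this window. With half-sites up to 13 bases apart and at most 2 mismatches, Gadd45a and Epha2 had a match in the same window, as did 47.0% of tested genes. Mdm2, Eda2r and Tnfrsf10b still had none. A match is a description of sequence and does not show binding.

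**Figure D1:**
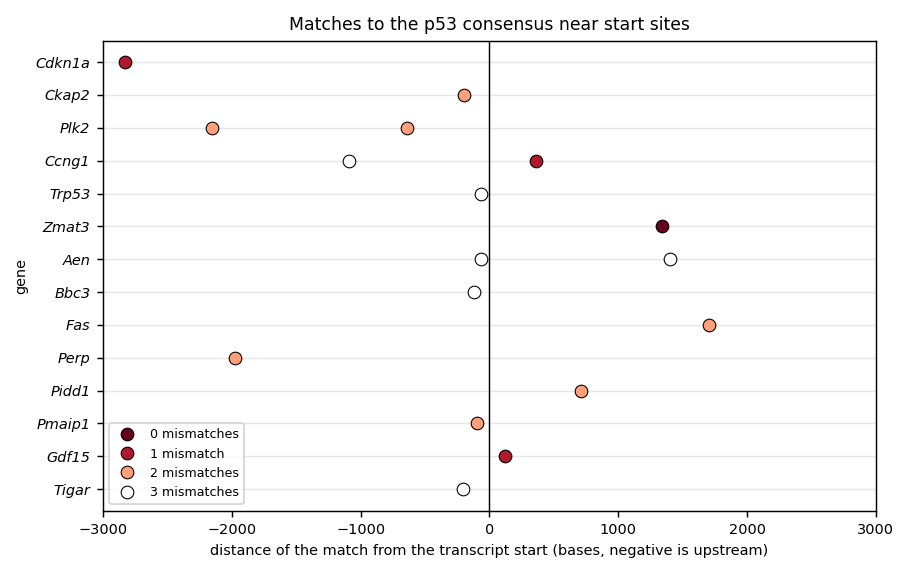
Position of each p53 consensus match relative to the transcript start of its gene, in bases, with colour giving the number of mismatches; white points, with 3 mismatches, are outside the count of 10 members. Matches lie on both sides of the start, with those of the 10 members running from 2831 bases upstream for Cdkn1a to 1708 bases downstream for Fas.

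Of the 28 members with enough counts to test, 22 had a positive fold change, KO over WT, yet none passed the test over all genes. With edgeR's quasi-likelihood test 0 members had an adjusted p (Benjamini-Hochberg, over all genes tested) under 0.05. Of all 8200 tested genes 0.402% were called, and a p that misses the threshold does not show that a member did not differ. At an unadjusted p under 0.05, 5 members were higher in KO (Cdkn1a, Plk2, Gadd45a, Mdm2 and Epha2), where 2.7% of all tested genes were, and 1 was lower (Aen), where 3.79% were. For 7 members every KO library lay above every WT library, 25.0% of the 28 against 6.94% of all tested genes. Those were the same 5 plus Eda2r and Tnfrsf10b. For 1 member, Aen, every KO library lay below every WT library, which is 3.57% of the 28 against 7.93% of all tested genes. DESeq2 called 3 members higher (Cdkn1a, Gadd45a and Plk2), with 2.88% of the genes to which it gave an adjusted p called.

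The members' summed level separated the groups. Added up, the 32 members had 2043, 2633 and 2322 CPM in KO, against 1391, 1318 and 1342 CPM in WT. Plk2 and Epha2 held a large part of this. Without them the sums were 1169 to 1527 CPM in KO and 749 to 817 CPM in WT, so the groups still did not overlap. The median log2 fold change, KO minus WT, was 0.73 over the 28 tested members and -0.02 over all tested genes, and 22 of 28 were positive against 49% of all tested genes. Members that are low in one group pass the count filter only through the other, so these counts describe the list and do not support a direction. Coverage also differed between libraries: WT replicate 3 had a count for 18 of the 32 members, against 25 to 28 in each of the other libraries. Without that library the median was 0.85, and without KO replicate 2 it was 0.55.

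Coverage split the list. A total of 11 tested members averaged at least 3 molecule equivalents, and among them 10 had a positive fold change, with a median of 0.67. Among the 3631 tested genes with that coverage 46.6% were positive, with a median of -0.04. The other 17 tested members, each below that coverage, had a median of 0.82 and included the widest intervals. Of 8 tested members with a consensus match 6 were positive (median 0.66), and of 20 without one 16 were positive (median 0.92).

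**Figure D2:**
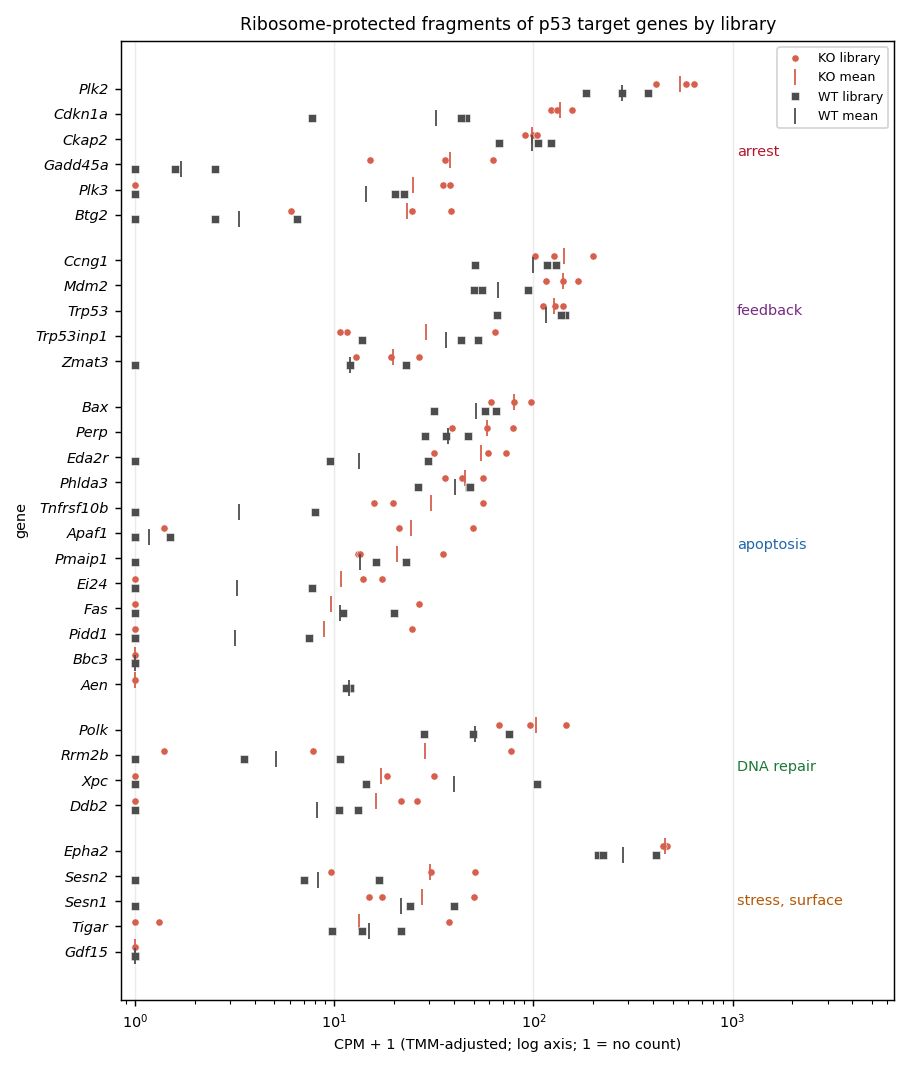
Fragment level of all 32 members as CPM plus 1 on a log axis, with KO libraries as red circles and WT libraries as grey squares, vertical ticks for group means and members grouped by role. Cdkn1a, Plk2, Gadd45a, Mdm2, Eda2r, Tnfrsf10b and Epha2 have all 3 KO points to the right of all 3 WT points, Aen has the reverse, and Bbc3 and Gdf15 have no count.

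All 6 arrest genes were tested, 5 had positive fold changes (median 1.54) and 3 (50%) had every KO library above every WT library. Over all tested genes 6.94% lay above in this way and 7.93% below. Each role holds few genes, and differences between roles in such counts were not tested. Together the 6 arrest genes had 697 to 951 CPM in KO and 310.5 to 513.8 CPM in WT. Cdkn1a (chr17:29090976-29100727, plus strand) encodes p21, the inhibitor of cyclin-dependent kinases through which p53 stops the cell cycle. It had 154, 122 and 129.99 CPM in KO against 6.69, 45.0 and 42.2 CPM in WT. Each KO library thus lay well above each WT library, and WT replicate 1 was the lowest, with 11 counts, fewer than its modal count of 15. The log2 fold change was 2.11 (SE 0.61, 95% interval 0.80 to 3.42, edgeR adjusted p = 0.297), and it ran from 1.64 to 2.47 over 15 other settings. DESeq2 called it (adjusted p = 0.0091), as did edgeR without a count filter (adjusted p = 0.024), and the adjusted p ran from 0.0091 to 0.629 over those settings.

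Plk2 (chr13:110395046-110400844, plus strand) is a polo-like kinase with a role in centriole duplication. It had 413, 637 and 582 CPM in KO against 376, 278 and 182 CPM in WT. The groups were apart by a small gap, between KO replicate 1 and WT replicate 1. The log2 fold change was 0.96 (SE 0.28, 95% interval 0.36 to 1.57, edgeR adjusted p = 0.304). It averaged 27.4 molecule equivalents, more than any other member. It was called by DESeq2 (adjusted p = 0.011) and by edgeR on molecule equivalents (adjusted p = 0.023) and without a count filter (adjusted p = 0.041). On molecule equivalents 110 of all 968 tested genes were called, and without a count filter 91 of 12794. The adjusted p of Plk2 ran from 0.011 to 0.869 over 16 other settings.

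Gadd45a (chr6:67035096-67037457, minus strand) encodes a stress-induced protein that restrains entry into mitosis. Its counts were 90, 33 and 199 in KO against 0, 3 and 1 in WT, which is 37.0 ± 23.9 CPM in KO and 0.692 ± 0.756 CPM in WT (SD, n = 3). The groups were apart, with WT close to 0, and the mean was 1.06 molecule equivalents. The fitted log2 fold change of 5.60 had a wide interval (SE 2.03, 95% interval 1.27 to 9.94, edgeR adjusted p = 0.511). DESeq2 called it (adjusted p = 0.0066), and over 13 other settings the adjusted p ran from 0.0066 to 0.922. Gadd45a passed the count filter only through KO, so the call does not support a direction. Its KO libraries held 2.14, 0.717 and 3.32 molecule equivalents, while the test takes reads as independent. A noncoding gene, E230016M11Rik, overlaps Gadd45a. In all 13 members overlap another annotated gene, among them Cdkn1a and Sesn2 with noncoding genes and Bax, Polk, Plk3 and Ddb2 with coding ones, so reads may be shared.

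Btg2, an antiproliferative partner of the CCR4-NOT deadenylase, had 5.07, 23.5 and 37.5 CPM in KO against 5.47, 1.499 and 0 CPM in WT. Its groups overlapped through KO replicate 1 (log2 fold change 3.22, SE 2.34, edgeR adjusted p = 1.0). Plk3, a related polo-like kinase, had no count in KO replicate 1 and WT replicate 2 (0.82, SE 2.04). Ckap2, a microtubule-associated protein of mitotic cells, had similar means, 96.8 ± 6.92 CPM in KO and 97.5 ± 28.3 CPM in WT (SD, n = 3). Its log2 fold change was -0.01, with a 95% interval from -0.91 to 0.89.

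Of the 5 feedback genes 4 were positive, with a median of 0.52. Only Mdm2 (chr10:117688875-117710758, minus strand) had groups apart, with KO above WT. That is 20% of the 5, against 6.94% of all tested genes. The 5 summed to 376 to 563 CPM in KO and 299 to 367 CPM in WT. Mdm2 had 139, 167 and 114 CPM in KO against 92.4, 54.0 and 49.1 CPM in WT. All 3 KO libraries exceeded the highest WT library. The log2 fold change was 1.10 (SE 0.43, 95% interval 0.18 to 2.02, edgeR adjusted p = 0.565). It ran from 0.93 to 1.44 over 15 other settings and was called in none.

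Trp53 (chr11:69580359-69591873, plus strand), the gene of p53 itself, had overlapping groups. It had 128, 111 and 139 CPM in KO against 143, 64.5 and 137 CPM in WT. The KO values lie inside the range of the WT values (log2 fold change 0.14, SE 0.41, 95% interval -0.73 to 1.003), and without WT replicate 2 the sign turned, to -0.15. Ccng1, cyclin G1, which recruits a phosphatase to Mdm2, had 126, 197 and 101 CPM in KO against 49.9, 116 and 129.5 CPM in WT. These groups overlapped as well (0.52, SE 0.44).

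Zmat3, an RNA-binding zinc finger protein, had 18.3, 25.7 and 11.8 CPM in KO against 10.9, 22.0 and 0 CPM in WT, about 1 molecule equivalent on average (1.06). Trp53inp1, which promotes p53 activity, had the only negative feedback fold change (-0.36, SE 1.10). Its libraries ranged from 9.62 to 62.9 CPM in KO and from 12.8 to 51.5 CPM in WT.

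**Figure D3:**
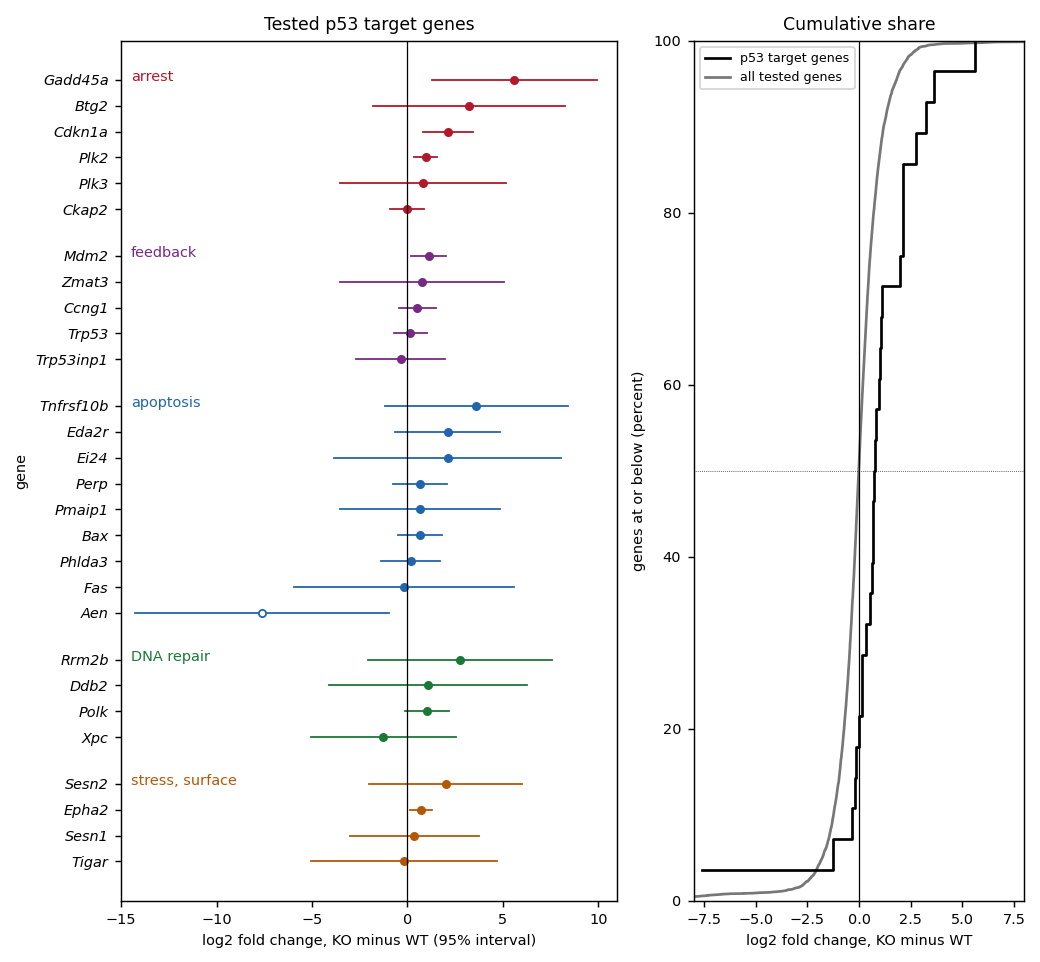
Left, log2 fold change, KO minus WT, of the 28 tested members with 95% intervals from edgeR, by role; the open point is Aen, whose fitted value is set by a KO group without counts. Right, cumulative share of log2 fold changes for the tested members and for all 8200 tested genes, crossing 50 percent at medians of 0.73 and -0.02.

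Of 12 apoptosis genes 9 were tested, and 7 of these were positive (median 0.66). Every KO library lay above every WT library in 2 (22.2%, against 6.94% of all tested genes). In 1 every KO library lay below (11.1%, against 7.93%). Together the 12 had 277 to 404 CPM in KO and 102 to 222 CPM in WT. Bax, the pore-forming protein of the mitochondrial outer membrane, averaged 4.44 molecule equivalents. It had 78.4, 60.4 and 96.5 CPM in KO against 55.9, 64.0 and 30.6 CPM in WT. KO replicate 2 lay below WT replicate 2, so the groups overlapped (log2 fold change 0.64, SE 0.54, 95% interval -0.52 to 1.81). Perp, a membrane protein of desmosomes and a p53 effector, also had overlapping groups, with 57.6 ± 20.05 CPM in KO and 36.2 ± 9.34 CPM in WT (SD, n = 3; 0.67, SE 0.66). Phlda3, a competitor of Akt for membrane lipids, averaged 44.3 ± 10.03 CPM in KO and 39.5 ± 12.2 CPM in WT (0.16, SE 0.73).

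Of 3 receptor genes 2 had groups apart, at low counts. Eda2r, the receptor for the A2 form of ectodysplasin, had 58.1, 30.8 and 72.0 CPM in KO against 28.6, 8.49 and 0 CPM in WT. Its groups were separated only narrowly, by KO replicate 2 and WT replicate 1 (log2 fold change 2.12, SE 1.29, edgeR adjusted p = 0.999). Tnfrsf10b, the mouse TRAIL death receptor, had counts of 48, 128 and 48 in KO against 0, 14 and 0 in WT. Like Gadd45a it passed the count filter only through KO, so the separation of its groups does not support a direction. Its WT counts lay below the modal counts and its mean was 0.899 molecule equivalents (3.61, SE 2.24, edgeR adjusted p = 1.0). Fas, the receptor of Fas ligand, had fragments in 1 KO and 2 WT libraries, with counts of 0, 60 and 0 in KO against 31, 20 and 0 in WT (-0.17, SE 2.70).

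Aen (chr7:78895854-78911209, plus strand), a nuclease induced by p53, had KO below WT. It had no count in any KO library and 18, 22 and 18 counts in WT, about 1 modal count each in WT replicates 1 and 2 and less in WT replicate 3. Aen passed the count filter only through WT (edgeR adjusted p = 0.601). A floor of 3 counts in each KO library gives a bound of 9.55-fold lower in KO, which takes reads as independent. The KO modal counts of 42, 46 and 60 exceed that floor, so the bound may not hold and the size of a difference is not shown. The mean of Aen was 0.452 molecule equivalents. With Aen at that bound the median over the members stayed at 0.73.

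Bbc3, which encodes PUMA, was listed at 0 in all 6 libraries. Pmaip1, which encodes NOXA, averaged 19.6 ± 12.7 CPM in KO and 12.4 ± 11.3 CPM in WT (SD, n = 3; log2 fold change 0.66, SE 1.95). Apaf1, the scaffold of the apoptosome, had enough counts in too few libraries for the filter, with 1, 114 and 65 in KO against 0, 1 and 0 in WT. Pidd1, a death-domain adaptor, had 0, 55 and 0 counts in KO against 0, 13 and 0 in WT and was not tested either. Ei24, a membrane protein of the endoplasmic reticulum, had counts of 42, 30 and 0 in KO against 11, 0 and 0 in WT (2.11, SE 2.78).

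**Figure D4:**
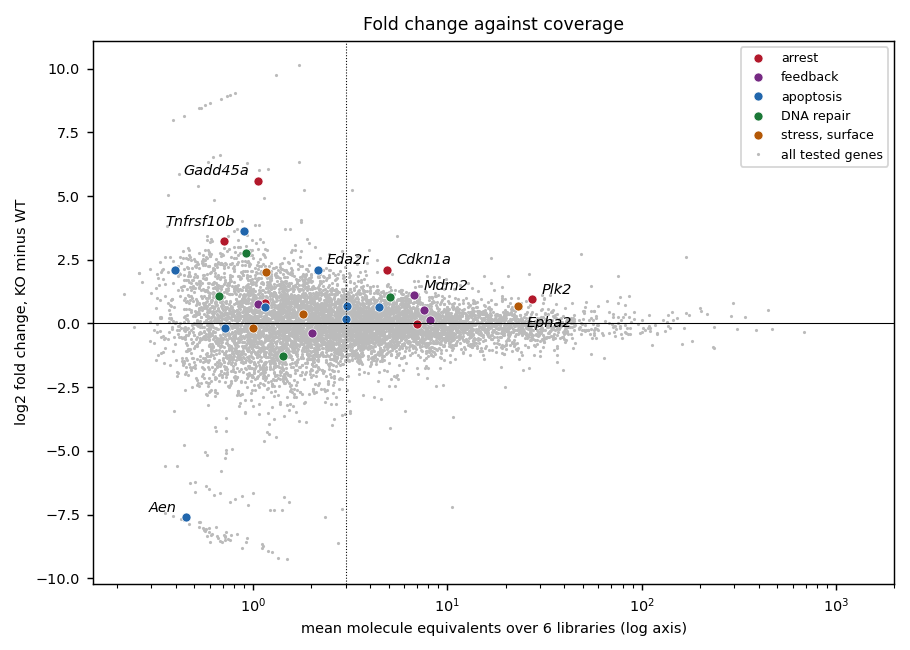
Log2 fold change, KO minus WT, against mean molecule equivalents over the 6 libraries on a log axis, for all 8200 tested genes (grey) and the 28 tested members (coloured by role), with the dotted line at 3 molecule equivalents. Members whose groups did not overlap are named: Plk2, Epha2, Mdm2 and Cdkn1a lie right of the line, and Gadd45a, Tnfrsf10b, Eda2r and Aen left of it.

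None of the 4 DNA repair genes had groups apart, where 6.94% of all tested genes had KO above WT and 7.93% had KO below. The 4 summed to 91.7 to 222 CPM in KO and 60.5 to 143 CPM in WT, 3 were positive and the median was 1.05. Polk, a translesion DNA polymerase, had 66.3, 94.6 and 145 CPM in KO against 74.2, 48.5 and 27.2 CPM in WT. Only KO replicate 1 and WT replicate 1 crossed (log2 fold change 1.03, SE 0.54, 95% interval -0.13 to 2.19, edgeR adjusted p = 0.877). Rrm2b, the p53-inducible subunit of ribonucleotide reductase, rested on KO replicate 2, with counts of 1, 177 and 22 in KO against 16, 5 and 0 in WT. Its log2 fold change of 2.75 (SE 2.26) became -0.15 without that library.

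Xpc and Ddb2, the damage sensors of nucleotide excision repair, had fold changes of opposite sign, both with intervals that include 0. Xpc had counts of 0, 72 and 56 in KO against 22, 0 and 179 in WT, the last library holding most of the WT sum. Its log2 fold change was -1.27 (SE 1.78) and turned to 1.26 without WT replicate 3. Ddb2 had counts of 64, 48 and 0 in KO against 0, 19 and 21 in WT (1.07, SE 2.43), and it overlaps the coding gene Acp2, whose reads may be shared.

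The 5 genes of stress metabolism and surface signalling summed to 509 to 556 CPM in KO and 261 to 420.3 CPM in WT, and 3 of 4 tested were positive (median 0.53). Epha2 alone had groups apart, with KO above WT, which is 25% of the 4 tested against 6.94% of all tested genes. Epha2 (chr4:141301240-141329384, plus strand), a receptor tyrosine kinase for ephrin-A ligands, had 461, 469.7 and 445 CPM in KO against 209.8, 223 and 412 CPM in WT. The KO libraries were close to each other and WT replicate 3 lay just under them. The log2 fold change was 0.70 (SE 0.28, 95% interval 0.11 to 1.29, edgeR adjusted p = 0.565). It was 1.08 without WT replicate 3. On molecule equivalents only Epha2 and Plk2 of the members passed the filter. Both were called there, as were 110 of all 968 genes tested in that setting. Epha2 stood at 0.91 in it (edgeR adjusted p = 0.032), and its adjusted p ran from 0.032 to 0.965 over 16 other settings.

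The sestrins, which restrain mTORC1 under stress, were near 1 to 2 molecule equivalents. Sesn2 had 8.58, 29.5 and 49.6 CPM in KO against 15.8, 5.996 and 0 CPM in WT (log2 fold change 2.00, SE 1.87). Sesn1 had 49.5, 16.3 and 14.0 CPM in KO against 23.1, 39.0 and 0 CPM in WT (0.36, SE 1.58), and the sign turned without KO replicate 1 (-0.44) or WT replicate 3 (-0.23). Both sets of values overlapped. Tigar, a regulator of glycolysis, rested on KO replicate 1, with counts of 94, 0 and 1 in KO against 21, 41 and 15 in WT (-0.18, SE 2.28, and -5.98 without that library). Gdf15, a stress-induced cytokine, was listed at 0 in all 6 libraries.

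**Figure D5:**
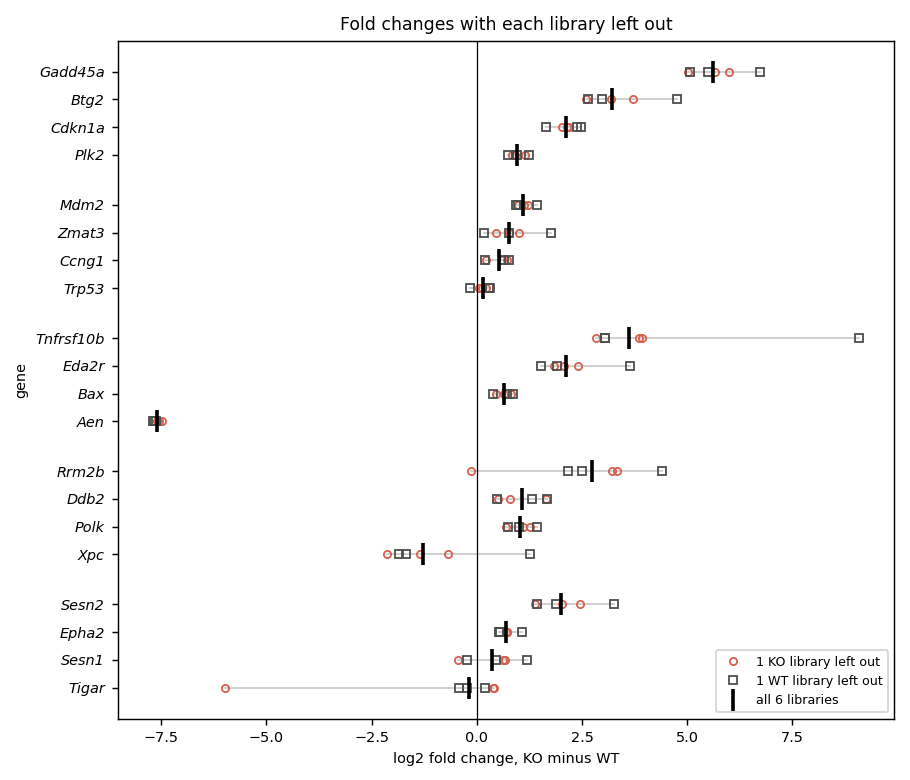
Log2 fold change, KO minus WT, of the 20 members described by library, with all 6 libraries (black tick) and with 1 KO library (red circle) or 1 WT library (grey square) left out. Cdkn1a, Plk2, Mdm2 and Epha2 stay positive, within 1.64 to 2.47 for Cdkn1a and 0.93 to 1.44 for Mdm2, and Rrm2b, Xpc, Sesn1, Tigar and Trp53 cross 0.

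Per length of coding sequence, 10 members reached the modal count in every library. Their levels in KO ran from 266 CPM per kb for Plk2, through 160.1 for Ccng1, 156 for Epha2, 136 for Bax, 118 for Phlda3, 108 for Trp53, 99.5 for Perp and 95.5 for Mdm2, to 48.6 for Ckap2 and 39.9 for Polk. In WT, Plk2 was again highest at 136 CPM per kb and Polk lowest at 19.5, while Mdm2, at 44.4, stood below Ckap2, at 48.9. Differences between neighbours in this order were not tested. Cdkn1a, with 284 CPM per kb in KO and 65.6 in WT, is outside this order because WT replicate 1 was under its modal count.

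Of 42 further reported p53 targets 32 were tested, 21 were positive (median 0.18) and 4 (12.5%) had every KO library above every WT library, against 6.94% of all tested genes. Ptpn14, a phosphatase that restrains YAP, had 179, 167 and 245 CPM in KO against 79.0, 114 and 89.6 CPM in WT (log2 fold change 1.06, SE 0.35, edgeR adjusted p = 0.429). Rps27l, a ribosomal protein paralog induced by p53, stood at 1.73 (SE 0.94) and the tetraspanin Cd82 at -0.89 (SE 0.51). Short fragments of Rps27l may be shared with its paralog Rps27.

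Of 31 genes that regulate p53, 27 were tested, 14 were positive (median 0.11) and none was called by edgeR. Nat10, the target of the guide, is itself among the 27. Of the 27, 6 (22.2%) had every KO library above every WT library, a share near the 25.0% of the 28 tested members, and 2 (7.41%) had every KO library below, against 6.94% and 7.93% of all tested genes. At an unadjusted p under 0.05 there was 1 gene, which was lower, as were 3.79% of all tested genes. That gene was Npm1, nucleophosmin, with 911, 743 and 795 CPM in KO against 1224, 1006 and 979 CPM in WT (log2 fold change -0.39, SE 0.18, edgeR adjusted p = 0.768). The ribosomal protein gene Rpl11, whose product binds Mdm2, stood at 0.58 (SE 0.35), and Trp53bp2 and Ppp1r13l, of the ASPP family, at 1.69 (SE 1.04) and 1.68 (SE 1.03).

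The last list holds cell cycle genes that p53 and p21 shut down through the DREAM repressor complex. All 40 were tested, 8 were positive and 32 negative (median -0.26), where 49% of all tested genes were positive. The list was better covered, with a median of 11.15 molecule equivalents against 2.54 over all tested genes. Of tested genes averaging at least 3 molecule equivalents, 46.6% were positive (median -0.04). In 4 of the 40 (10%) every KO library lay below every WT library. That share is near the 7.93% of all tested genes and the 10.5% of those averaging at least 3 molecule equivalents. In 1 (2.5%), Foxm1, every KO library lay above, against 6.94% of all tested genes. None was called by edgeR. At an unadjusted p under 0.05, 1 was higher and 2 were lower, as were 221 and 311 of all 8200 tested genes. Aurka, a mitotic kinase, had 62.8, 84.8 and 62.0 CPM in KO against 133, 152 and 157 CPM in WT, with the groups apart (log2 fold change -1.07, SE 0.39, edgeR adjusted p = 0.524). Top2a, topoisomerase II, had 1542, 1624 and 1779 CPM in KO against 2065, 2217 and 1799 CPM in WT (-0.30, SE 0.15), and the kinesin Cenpe stood at -0.56 (SE 0.25). Foxm1, a transcription factor of the G2 and M phases, was positive with the groups apart. It had 91.7, 53.9 and 69.5 CPM in KO against 24.3, 30.0 and 28.9 CPM in WT (1.37, SE 0.62, edgeR adjusted p = 0.734).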

How the data were processed

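Per the labels' protocols, reads from 6 ribosome profiling libraries were trimmed with Cutadapt, kept at 25 to 34 nt, cleared of rRNA and tRNA with Bowtie and aligned to GRCm38 (mm10) with HISAT2 and Bowtie. The submitters' processing notes also name featureCounts and DESeq2. The annotation, the strand setting and the handling of multiple matches and duplicates were not given in the sources used here. The authors deposited whole-number counts per Ensembl gene, not normalized. Of 53465 identifiers 53360 matched GENCODE M21.

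Counts were tested with edgeR 4.0.16 (quasi-likelihood, robust, TMM, filterByExpr; R 4.3.3), fitted to all 6 libraries over 8200 genes and adjusted by Benjamini-Hochberg. Other settings used DESeq2 1.42.0, limma-voom 3.58.1, other scaling, filters, a replicate block and leaving out each library; they are reported at the end. The modal count is the highest local peak of the histogram of counts per gene, taken between 8 and 150 after smoothing with a kernel of bandwidth 3. Sites were read from the RefSeq copy of GRCm38. Members whose groups were apart, and up to 4 members of each role with the smallest p, are given by library; other lists give up to 4 genes with the smallest p. A gene that this rule takes is not reported here. The markers are those of leukocytes, endothelium, fibroblasts and the ovarian epithelium. Members and lists were chosen with earlier results of these data known. The fit was tested on simulated data with known changes. Python 3.11.15 with pandas 2.3.3 and matplotlib 3.10.9 was used for summaries and plots. Intervals include the spread between libraries; floors cover counting error only. The pairing of equal replicate numbers was checked, and deviations from the group means correlated at -0.017, -0.0026 and -0.0067, so the numbers were not treated as pairs.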

Additional observations from a re-analysis of the deposited data

How the results depend on the processing

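The count of members called was 0 with edgeR and in 13 of 16 other settings; it was 3 with DESeq2, 2 without a count filter and 2 on molecule equivalents, where 2 members were tested. Genes called in all numbered 33 of 8200 tested with edgeR, 234 with DESeq2, 91 of 12794 without a filter and 110 of 968 on molecule equivalents. Over genes averaging at least 3 molecule equivalents, a filter chosen after seeing the data, they numbered 52 of 3631. Leaving out single libraries gave 6 to 29 genes and 0 members called, with 15, 20 and 18 genes without KO replicates 1, 2 and 3 and 6 without WT replicate 2 or WT replicate 3. Members with every KO library above every WT library numbered 7 of 28 tested. Without single libraries they numbered 7 to 13 (13 of 30 tested without KO replicate 1, 11 of 29 without WT replicate 2). With 1 library fewer any gene separates more easily, and the share over all tested genes was not computed without single libraries. The number was 5 of 14 with at least 50 counts in 3 libraries, 8 of 28 with library totals and 2 of 2 on molecule equivalents. For these settings too the share over all tested genes was not computed, so the counts cannot be set against it. Over genes averaging at least 3 molecule equivalents the number was 4 of 11, where 8.29% of all such genes separated this way. The median fold change of the members stayed positive in all 16 settings, from 0.55 to 0.98 without single libraries. With library totals it was 0.85 while the median of all genes moved to 0.09, from -0.02, and with limma-voom 0.89 against -0.13. With the replicate block the median was 1.02, 38 genes and 0 members were called. Of 20 members described by library 15 kept their sign. The 5 others turned only when a library was left out, over which Trp53 ran from -0.15 to 0.32, Rrm2b from -0.15 to 4.397, Xpc from -2.14 to 1.26, Sesn1 from -0.44 to 1.20 and Tigar from -5.98 to 0.40. Consensus matches were found for 6 members within 1000 bases (4 of the 28 tested), where 1.04% of tested genes had one. With half-sites up to 13 bases apart they were found for 22 members (19 of the 28 tested), where 47.0% of tested genes also had one. Causes of these shifts were not tested. Depth is limited: 17 of 28 tested members averaged under 3 molecule equivalents.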
